A study of Rattus norvegicus with 18 samples.

Results

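The interleukin-1 (IL-1) family and inflammasome genes described here are 10 genes chosen by symbol from the 30735 genes of the count table, Il1a, Il1b, Il1rn, Il1r1, Il1r2, Il1rap, Il18, Il33, Casp1 and Nlrp3. All 10 were listed once, and all 10 were among the 18444 genes that passed the filter on low counts. The libraries were made from cerebral cortex RNA of 18 adult Sprague Dawley rats, 8 to 10 weeks old, 6 rats and 6 libraries in each of 3 groups. In the SAH 1d and SAH 7d groups, subarachnoid hemorrhage (SAH, bleeding into the fluid space around the brain) was produced by perforating an artery from within, and tissue was taken 1 or 7 days later. The sham rats had the operation without the perforation, and no allele or drug distinguished the groups. The study's methods place the tissue on the operated side, whereas the deposited descriptions name both sides and mice. All gene identifiers in the count table are rat ones. Library numbers below are those of the count columns.

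IL-1α and IL-1β are cytokines that bind the receptor encoded by Il1r1, which signals together with the accessory protein encoded by Il1rap. Il1rn encodes the receptor antagonist, and Il1r2 encodes a decoy receptor that binds the ligands without signalling. Pro-IL-1β and pro-IL-18 are cut to their active forms by caspase-1 (Casp1), which is activated in inflammasomes, and Nlrp3 encodes the sensor of the best studied of these complexes. Il33 encodes a nuclear alarmin that is abundant in glia of the central nervous system. RNA levels give no measure of this cleavage or release.

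In RefSeq's order of coding genes, Il1a and Il1b are neighbours on chromosome 3, Il1rn lies on the same chromosome beside Il1f10, and Il1r1 lies on chromosome 9 beside Il1rl2. The 250 bases before the RefSeq start sites of the 3 ligand and antagonist genes of chromosome 3 are shown because Il1b and Il1rn rose 1 day after SAH and Il1a did not pass the test, a contrast between the genes that was not itself tested. The rise of Il1rn rested on 1 library, SAH 1d-3, and without it Il1rn did not pass either (edgeR adjusted p = 0.180). The sequences are from build GRCr8, which is not the build of the count table, at chr3:136990018-136990267 (minus strand) for Il1a, chr3:137036582-137036831 (minus strand) for Il1b and chr3:27520072-27520321 (plus strand) for Il1rn. Each is written 5′ to 3′ on the strand of its gene, and capitals mark a TATA box (TATAAA, searched on this strand) or an AP-1 match (TGANTCA, searched on both strands, which reads the same on either).
Il1a: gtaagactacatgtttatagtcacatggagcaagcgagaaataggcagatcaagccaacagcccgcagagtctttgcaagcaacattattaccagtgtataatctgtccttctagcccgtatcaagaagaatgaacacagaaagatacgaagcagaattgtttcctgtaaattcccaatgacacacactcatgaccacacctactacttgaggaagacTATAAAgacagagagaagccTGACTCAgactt
Il1b: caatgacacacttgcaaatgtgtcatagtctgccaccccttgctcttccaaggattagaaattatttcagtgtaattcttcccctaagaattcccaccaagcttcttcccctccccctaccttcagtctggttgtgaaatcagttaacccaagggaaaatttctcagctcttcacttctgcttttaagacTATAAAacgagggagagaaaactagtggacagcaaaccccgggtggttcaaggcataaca
Il1rn: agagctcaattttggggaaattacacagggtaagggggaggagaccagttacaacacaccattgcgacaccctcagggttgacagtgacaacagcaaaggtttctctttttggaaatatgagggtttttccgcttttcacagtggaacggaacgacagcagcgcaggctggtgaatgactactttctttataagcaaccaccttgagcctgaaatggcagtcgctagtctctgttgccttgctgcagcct
The Il1a and Il1b sequences each held the TATA box letters, as did the window of Il33, and these letters stood in 8.80% of the 33469 RefSeq promoter windows of 300 bases, from 250 before to 50 after the start. The Il1rn sequence held none of the motifs searched. Promoter windows were found for 9 of the 10 members, 11 windows in all. AP-1 letters stood in the windows of Il1a and Il18 (7.33% of all windows). The C/EBP letters TTGCNNAA, on either strand, stood in those of Il33 and Il1b (10.6%), and the interferon regulatory factor letters (GAAA, any 2 bases, GAAA), on either strand, in those of Casp1 and Il1rap (3.92%). The NF-kappa-B consensus, on either strand, stood in the windows of Il1r1 and Il1rap (4.18%).

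Per transcript length, Il33 and Il1rap had the highest median levels of the members in all 3 groups. In SAH 7d the ranges of Il1rap and Il18 overlapped. In sham cortex the median FPKM (fragments per 1000000 mapped reads and per kilobase) was 15.5 for Il33, 8.90 for Il1rap, 2.40 for Casp1, 2.01 for Il18 and 1.59 for Il1r1. It was 0.629 for Nlrp3, 0.619 for Il1rn, 0.394 for Il1a, 0.143 for Il1b and 0.0586 for Il1r2. The sham ranges of neighbours in this order overlapped, except between Il1rap and Casp1 and between Il1r1 and Nlrp3. The antagonist transcript therefore lay above both of its ligands in sham medians, and the decoy receptor lay below every other member. In SAH 1d the median of Il1b was 1.15 FPKM and that of Il1r2 was 0.822 FPKM, and the ranges of all neighbours in the order overlapped. In SAH 7d Il33, at a median of 20.05 FPKM, stood clear of Il1rap, at 10.6 FPKM, and the other neighbours overlapped.

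A pair of libraries stood apart within their groups. SAH 1d-3 was the highest of its group for 10 of the 10 members, and SAH 7d-5 was the highest of its group for 8 of the 10, all but Il1rap and Il33. The excess was uneven. CPM (counts per 1000000 counts of a library whose size was scaled by TMM, which evens out differences in composition) in SAH 1d-3 were 29.6 times those in SAH 7d-5 for Il1r2, 7.23 times for Il1rn and 6.33 times for Il1b, but 0.509 times for Casp1, 0.321 times for Il18 and 0.273 times for Nlrp3. Over the 18 libraries, Il1a, Il1b, Il1rn and the 3 receptor genes were thus highest in SAH 1d-3 and Il18, Casp1 and Nlrp3 in SAH 7d-5, whereas Il33 was highest in SAH 7d-2. Markers of monocytes and macrophages, neutrophils, T cells and red cells gave a mixed picture in these libraries. Monocyte and macrophage sums and neutrophil sums were high in both, T cell markers only in SAH 7d-5 and red cell markers only in SAH 1d-3. The summed CPM of 5 monocyte and macrophage markers was 633 in SAH 1d-3 and 8757 in SAH 7d-5, against 51.1 to 284 in the other 16 libraries. Most of this sum was Lyz2, at 466 CPM in SAH 1d-3 and 7993 CPM in SAH 7d-5. In SAH 1d-3, Cd14 (132 CPM), Cd68 (13.9 CPM) and Cd163 (7.19 CPM) also lay above their SAH 1d medians. Mrc1 there, at 14.01 CPM, was close to its SAH 1d median of 13.78 CPM. The sum of 8 neutrophil markers was 71.2 in SAH 1d-3 and 220 in SAH 7d-5, against 1.92 to 21.1 elsewhere. The neutrophil genes differed between the pair. S100a9 was at 30.5 CPM and Cxcr2 at 6.66 CPM in SAH 1d-3, but at 0.695 and 0.272 CPM in SAH 7d-5, where Csf3r (89.1 CPM) and Mmp8 (130 CPM) made up most of the sum. Mpo, another gene of this list, was at 0 in both. T cell markers, 4 genes, summed to 247 CPM in SAH 7d-5 and to at most 2.06 CPM in the other libraries but SAH 1d-3, which had 1.57. Of the sum in SAH 7d-5, Cd8a made up 243 CPM, and the defining T cell genes Cd3e, Cd3g and Cd3d were at 1.99, 1.51 and 0.513 CPM. Microglia markers, 6 genes, summed to 158 CPM in SAH 1d-3 and to 1744 CPM in SAH 7d-5, against 152 to 682 elsewhere. Meningeal fibroblast markers, 5 genes, summed to 3560 CPM in SAH 7d-5 against at most 338 in the other 16, and neuron markers, 5 genes, to 2017 CPM, the lowest value of all. Neuron markers summed to 4100 to 5142 CPM in SAH 1d against 5064 to 8382 CPM in sham. Astrocyte markers, at 5365 and 4612 CPM in SAH 1d-3 and SAH 7d-5, lay within the 2028 to 5613 CPM of the other libraries, as oligodendrocyte markers did (14426 and 9555 CPM, within 7690 to 17827). Endothelial cell markers were at 261 and 136 CPM (97.5 to 170 elsewhere) and red cell markers at 117 and 1.24 CPM (4.22 to 58.7 elsewhere). Choroid plexus markers were at 1058 and 729 CPM in 2 other SAH 1d libraries and at most 67.8 CPM in sham. The part of these cells in the results below was not tested. Fewer cells of a type and less RNA per cell cannot be told apart in bulk tissue. The fold changes of the members are therefore given with and without this pair of libraries.

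**Figure D1:**
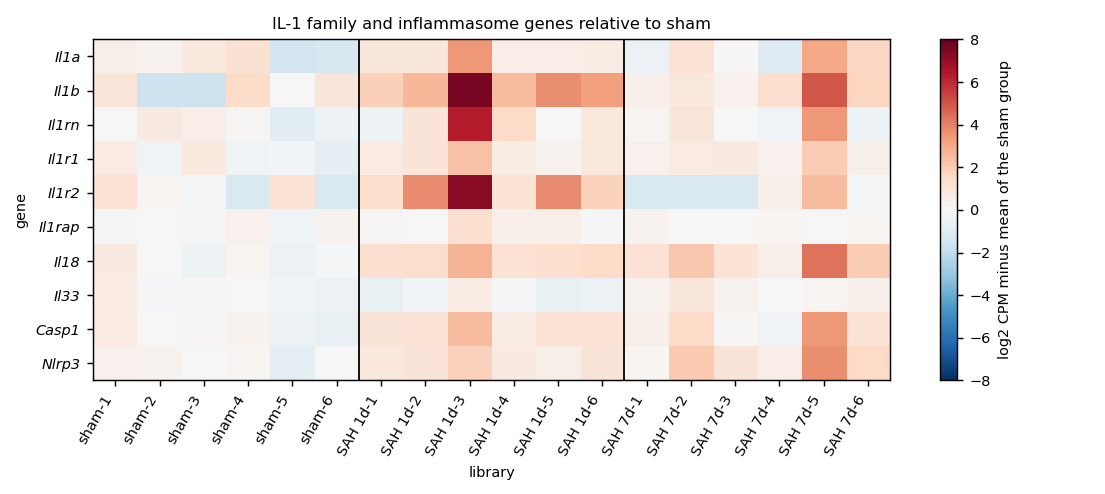
Level of each member in each of the 18 libraries, as log2 CPM minus the mean of the 6 sham libraries (colour, red higher, blue lower). SAH 1d-3 and SAH 7d-5 form the darkest columns, and the remaining SAH 1d libraries share a paler rise of Il1b, Il18, Casp1 and Nlrp3.

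One day after SAH, 7 of the 10 members had risen against sham and none had fallen (edgeR quasi-likelihood test, Benjamini-Hochberg adjusted p under 0.05). All 7 passed the further threshold of a log2 fold change of 1. Over all tested genes 25.4% changed, 14.9% rose and 5.57% rose past that threshold. The risen members were Il1b, Il1rn, Il18, Il1r1, Il1r2, Casp1 and Nlrp3. Without SAH 1d-3 the risen members were 5, Il1b, Il18, Il1r2, Casp1 and Nlrp3, against 15.4% of all genes. DESeq2 called 4 members, Il18, Casp1, Il1r1 and Nlrp3, all higher (16.6% of all genes rose by this test), and gave no adjusted p for Il1b, Il1r2 and Il1rn. Without SAH 1d-3 it called 6 members higher (16.4% of all genes), these 4 with Il1b and Il1r2, and Il33 lower (15.5%). With all 18 libraries in 1 edgeR fit, the risen members were Il1b, Il1r2 and Il1rn, against 8.18% of all genes. The median log2 fold change of the 10 members was 1.41 with all libraries and 0.76 without SAH 1d-3. The SAH 1d libraries lay wholly above the sham libraries in 3 members, Il1b, Il18 and Nlrp3, against 7.88% of all genes.

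Of the ligands, Il1b (ENSRNOG00000004649) had the largest rise. Its level was 0 to 0.494 CPM in sham, with a median of 0.231 CPM and no counts in sham-2 and sham-3. In SAH 1d it was 0.693 at the lowest, 1.57 at the median and 40.2 at the highest. All 6 SAH 1d libraries lay above all sham libraries, and SAH 1d-3 held 84.2% of the group's summed CPM. Against sham the log2 fold change was 5.17 ± 1.22 (SE, n = 6 per group, edgeR adjusted p = 0.00916). Without SAH 1d-3 it was 2.76 ± 0.65 (adjusted p = 0.00688), a fold of 6.77 in place of 35.9. The rise was thus present in the other 5 rats, and its size rested on SAH 1d-3.

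Il18 (ENSRNOG00000009848), whose product induces interferon-γ, rose in a narrower range. Sham libraries lay between 1.59 and 3.73 CPM with a median of 2.18, and SAH 1d libraries between 5.01 and 15.2 CPM with a median of 5.91. The groups did not overlap, and 5 of the 6 SAH 1d libraries fell between 5.01 and 6.70 CPM. The log2 fold change was 1.67 ± 0.31 (SE, n = 6, edgeR adjusted p = 0.00238), and 1.31 ± 0.20 without SAH 1d-3 (adjusted p = 0.000527). This was the smallest adjusted p among the members.

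Il1a (ENSRNOG00000004575), the neighbour of Il1b, did not pass the test. It ranged from 0.0992 to 1.05 CPM in sham (median 0.559) and from 0.608 to 5.19 CPM in SAH 1d (median 0.733). The groups overlapped, and only SAH 1d-3 exceeded every sham library. On the log2 scale its change was 1.48 ± 0.68 (SE, edgeR adjusted p = 0.124), and 0.43 ± 0.48 without SAH 1d-3 (adjusted p = 0.543). Il33 (ENSRNOG00000016456) ranged from 30.4 to 67.2 CPM in sham (median 39.97) and from 27.2 to 64.1 CPM in SAH 1d (median 33.1). SAH 1d-3 and sham-1 were the high libraries of their groups. The log2 fold change was -0.20 ± 0.23 (SE, edgeR adjusted p = 0.538), and -0.43 ± 0.17 without SAH 1d-3 (adjusted p = 0.0827).

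The inhibitors of the pathway rose with less even support. Il1rn (ENSRNOG00000005871) was at 0.694 to 2.35 CPM in sham (median 1.41) and at 1.03 to 112 CPM in SAH 1d (median 2.73). SAH 1d-3 held 90.3% of the SAH 1d sum, the next library was at 4.15 CPM, and SAH 1d-1 and SAH 1d-5 lay within the sham range. Its fitted log2 fold change was 3.83 ± 1.16 (SE, edgeR adjusted p = 0.029). Without SAH 1d-3 it was 0.70 ± 0.37 (adjusted p = 0.180), and the call was also lost when sham-3, sham-4, sham-5 or sham-6 was left out, with adjusted p from 0.0516. The antagonist's rise therefore rested on SAH 1d-3, at 1.48 ± 0.61 CPM in sham (SD, n = 6) against 2.41 ± 1.25 CPM (n = 5) in the other SAH 1d libraries.

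Il1r2 (ENSRNOG00000014378), the decoy receptor, was close to the detection limit in sham, at 0 to 0.266 CPM (median 0.0897) and 0 to 8 counts. In SAH 1d it was at 0.250 to 22.4 CPM (median 1.21), with SAH 1d-2 at 1.99, SAH 1d-5 at 1.96 and SAH 1d-3 highest. The other 3 SAH 1d libraries were at or below 0.461 CPM, and 5 of the 6 lay above every sham library. The log2 fold change was 5.24 ± 1.28 (SE, edgeR adjusted p = 0.0107). Without SAH 1d-3 it was 3.03 ± 0.80 (adjusted p = 0.0128), a fold of 8.18 in place of 37.9.

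Of the signalling receptor chains, Il1r1 (ENSRNOG00000014504) was at 3.67 to 10.2 CPM in sham (median 5.15) and at 7.37 to 30.4 CPM in SAH 1d (median 10.3). The groups overlapped, and sham-1 (9.45 CPM) and sham-3 (10.2 CPM) reached the level of SAH 1d-1, SAH 1d-4 and SAH 1d-5. The change on the log2 scale was 1.06 ± 0.36 (SE, edgeR adjusted p = 0.0444). It was 0.63 ± 0.25 without SAH 1d-3 (adjusted p = 0.076). The call was also lost without SAH 1d-2, SAH 1d-6, sham-2, sham-4, sham-5 or sham-6, and the adjusted p over these 7 settings was 0.0542 to 0.0919. Il1rap (ENSRNOG00000001928) was at 20.4 to 33.7 CPM in sham (median 25.3) and at 23.9 to 64.1 CPM in SAH 1d (median 31.1), with a log2 fold change of 0.42 ± 0.22 (SE, edgeR adjusted p = 0.177). Without SAH 1d-3, which was the library far above the rest, it was 0.16 ± 0.14 (adjusted p = 0.418).

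The inflammasome pair rose in most rats. Casp1 (ENSRNOG00000007372) was at 2.54 to 6.19 CPM in sham (median 3.94) and at 5.79 to 21.6 CPM in SAH 1d (median 8.33). Only SAH 1d-4, the lowest, fell below the highest sham library. The log2 fold change was 1.34 ± 0.31 (SE, edgeR adjusted p = 0.00877), and 0.96 ± 0.21 without SAH 1d-3 (adjusted p = 0.0043). Nlrp3 (ENSRNOG00000003170) was at 1.42 to 3.20 CPM in sham (median 2.63) and at 3.46 to 8.97 CPM in SAH 1d (median 4.74). The groups did not overlap. Against sham its log2 fold change was 1.04 ± 0.25 (SE, edgeR adjusted p = 0.00955), and 0.81 ± 0.19 without SAH 1d-3 (adjusted p = 0.00797). Of the 7 risen members, Nlrp3 and Il1r1 had the smallest changes.

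**Figure D2:**
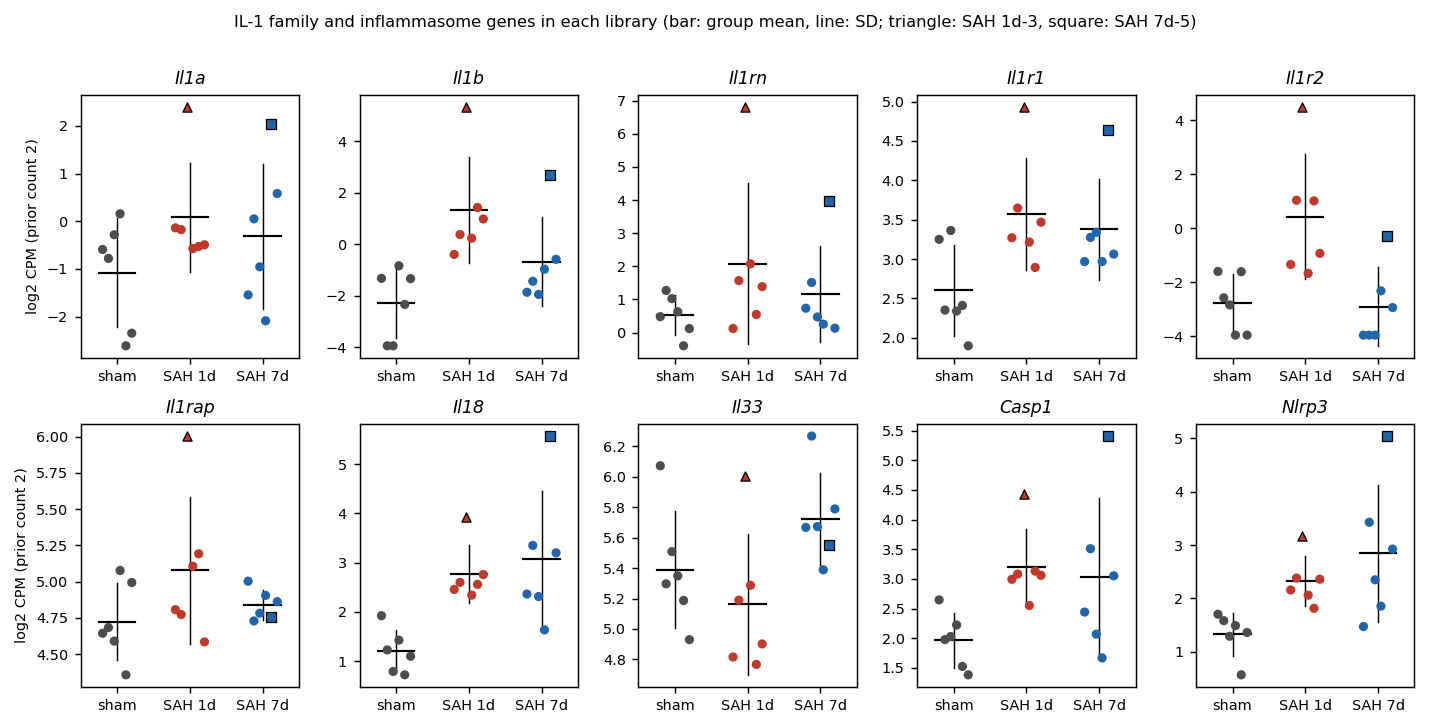
Level of each member as log2 CPM (prior count 2) in the 6 libraries of each group, with the group mean (bar) and SD (line). SAH 1d-3 (triangle) tops its group in all 10 panels and SAH 7d-5 (square) in 8, and the remaining SAH 1d points still lie above the sham points for Il1b, Il18 and Nlrp3.

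From 1 to 7 days after SAH, no member changed with all 12 libraries (edgeR adjusted p under 0.05), against 1.37% of all genes. An unadjusted p under 0.05 was reached by 2 of the 10, Il1r2 and Il33, against 14.7% of all genes. DESeq2 also called none (5.49% of all genes), and it gave no adjusted p for Il1b, Il1rn and Il1r2. Without SAH 7d-5 and SAH 1d-3, 3 members changed, against 13.6% of all genes, of which 6.13% rose and 7.49% fell. Il1b and Il1r2 fell and Il33 rose, and the groups then did not overlap for these 3 (6.67% of all genes lay apart downwards and 5.07% upwards). Both libraries stood out by their values in these same members, so leaving them out takes away the extreme values. The 3 calls and the lack of overlap are therefore no independent support for a change. The comparisons share libraries, so the values of SAH 1d enter both this comparison and the one with sham.

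Il1b in SAH 7d was at 0.194 to 6.34 CPM with a median of 0.374, and only SAH 7d-5 exceeded 0.600 CPM, which is below the lowest SAH 1d library. Against SAH 1d the log2 fold change was -2.55 ± 1.24 (SE, edgeR adjusted p = 0.368). It was -4.52 without SAH 7d-5 (adjusted p = 0.0408), -0.13 without SAH 1d-3 (adjusted p = 0.969) and -2.10 ± 0.42 without both libraries (adjusted p = 0.00780), a 4.30-fold fall. Il1r2 had no counts in 3 of the 6 SAH 7d libraries, was at 0.137 CPM at most in 5 of them, and was at 0.755 CPM in SAH 7d-5. Its log2 fold change was -4.78 ± 1.42 (SE, edgeR adjusted p = 0.128), -6.73 without SAH 7d-5 (adjusted p = 0.0263), -2.57 without SAH 1d-3 (adjusted p = 0.285) and -4.52 ± 0.94 without both libraries (adjusted p = 0.00911). In the 5 SAH 7d libraries other than SAH 7d-5, Il1b thus lay at 0.194 to 0.600 CPM and Il1r2 at 0 to 0.137 CPM, against 0 to 0.494 and 0 to 0.266 CPM in sham.

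Il33 moved the other way. It was at 41.8 to 77.0 CPM in SAH 7d with a median of 50.9, and SAH 7d-2 was the highest of all 18 libraries. Its log2 fold change against SAH 1d was 0.52 ± 0.22 (SE, edgeR adjusted p = 0.290). Leaving out SAH 1d-3 alone brought it to 0.74 (adjusted p = 0.0365), and leaving out both libraries brought it to 0.78 ± 0.16 (adjusted p = 0.00774). All 5 remaining SAH 7d libraries then lay above all 5 remaining SAH 1d libraries. Against sham, Il33 at 7 days differed by 0.32 ± 0.19 (SE, edgeR adjusted p = 0.404), and by 0.36 ± 0.19 without SAH 7d-5 (adjusted p = 0.470), so its level was not shown to leave that of sham.

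Il1rn was at 1.03 to 15.5 CPM in SAH 7d (median 1.46), with SAH 7d-5 highest and the next library at 2.79 CPM. Its log2 fold change against SAH 1d was -2.40 ± 1.26 (SE, edgeR adjusted p = 0.407) and -0.61 ± 0.39 without both libraries. Il1r1 was at 7.76 to 24.9 CPM (median 8.95), and its change was -0.23 ± 0.40 (adjusted p = 0.841), or -0.20 ± 0.14 without both libraries. For Il1rap the SAH 7d range was narrow, 26.5 to 31.99 CPM. Il1a was at 0.171 to 4.05 CPM.

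Against sham, the SAH 7d libraries showed no member changed by edgeR, as no gene of the table passed (0.0% of 18444). At an unadjusted p under 0.05 there were 5 members, Il18, Nlrp3, Casp1, Il1b and Il1r1, against 15.4% of all genes. Without SAH 7d-5 the count was 2, Il18 and Nlrp3, against 12.6% of all genes. DESeq2 called 2 members, Il18 and Nlrp3, against 2.49% of all genes, and called the same 2 without SAH 7d-5, against 2.94%. It gave no adjusted p for Il1b and Il1rn with all libraries, and none for Il1b and Il1r2 without SAH 7d-5. Il18 was at 3.04 to 47.4 CPM in SAH 7d (median 7.10), and 5 of 6 libraries lay above every sham library. The log2 fold change was 2.52 ± 0.63 (SE, edgeR adjusted p = 0.214, DESeq2 adjusted p = 0.00256) and 1.48 ± 0.31 without SAH 7d-5 (edgeR adjusted p = 0.113). Nlrp3 was at 2.72 to 32.8 CPM (median 6.28), and again 5 of 6 libraries lay above every sham library. Its log2 fold change was 2.04 ± 0.55 (SE, edgeR adjusted p = 0.214, DESeq2 adjusted p = 0.0104) and 1.23 ± 0.33 without SAH 7d-5 (edgeR adjusted p = 0.145). Casp1 was at 3.11 to 42.4 CPM (median 6.79), 3 of 6 libraries lay above every sham library, and the log2 fold change was 1.64 ± 0.59 (SE, edgeR adjusted p = 0.258) and 0.70 ± 0.32 without SAH 7d-5 (edgeR adjusted p = 0.399).

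SAH 7d-2 and SAH 7d-6 followed SAH 7d-5 in these 3 genes. SAH 7d-2 had 10.1 CPM of Il18, 11.3 of Casp1 and 10.7 of Nlrp3, and SAH 7d-6 had 9.13, 8.23 and 7.53 CPM. SAH 7d-1, SAH 7d-3 and SAH 7d-4 lay at 3.04 to 5.08 CPM for Il18 and at 3.11 to 5.36 CPM for Casp1. Nlrp3 was at 2.72 to 5.03 CPM in the same 3 libraries. The first 3 libraries were thus the same for Il18, Casp1 and Nlrp3. Microglia markers summed to 682 CPM in SAH 7d-2 and 499 CPM in SAH 7d-6, against 152 to 285 CPM in the other libraries except SAH 7d-5. This sum, too, was highest in SAH 7d-5, then SAH 7d-2, then SAH 7d-6, and its part in the order of the 3 genes was not tested.

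**Figure D3:**
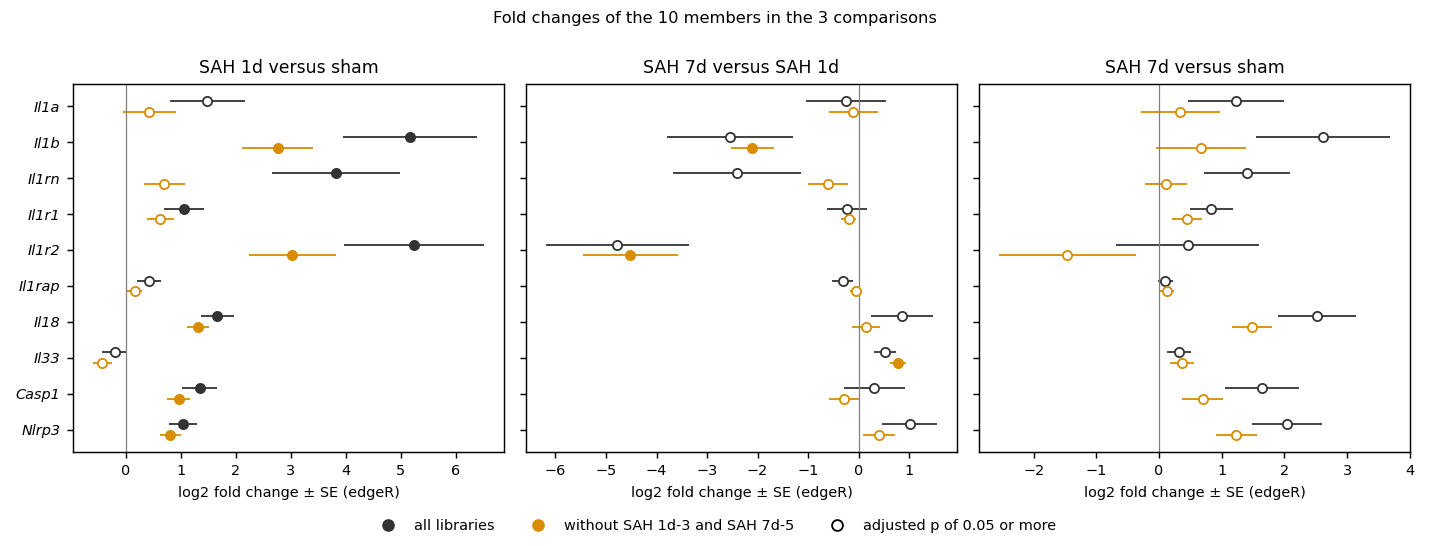
log2 fold change ± SE of each member in the 3 comparisons, with all libraries (grey) and with both high libraries left out (orange), filled where the edgeR adjusted p is under 0.05. The largest values, for Il1b, Il1rn and Il1r2 at 1 day, shrink without the pair, and 3 orange points are filled in the comparison of 7 days with 1 day.

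The balance between each inhibitor and its partner was taken as a log2 ratio of FPKM within each library, with 0.1 added to both, and compared by exact two-sided permutation of the libraries (adjusted over 6 tests). The antagonist to ligand ratio, Il1rn over Il1b, was 0.84 to 3.58 in sham, -1.34 to 1.27 in SAH 1d and 0.20 to 2.29 in SAH 7d. The 2 highest sham values, of sham-2 and sham-3, came from libraries with no Il1b counts and are set by the 0.1 added. Its mean was 1.82 ± 1.27 (SD, n = 6) in sham and 0.24 ± 0.93 in SAH 1d, a difference of -1.58 (exact permutation p = 0.0281, adjusted p = 0.0682), and it was 1.21 ± 0.81 in SAH 7d. The ratio was below the sham mean in 6 of 6 SAH 1d libraries, but no comparison of it passed the adjustment. Without SAH 1d-3 the difference was -1.72 (adjusted p = 0.0693). Without SAH 1d-4 the comparison of SAH 1d with sham did pass, at -1.79 (exact permutation, adjusted p = 0.0303). Over 4 alternative settings, among them 1 added in place of 0.1, the difference ran from -2.05 to -0.34 and never passed (exact tests, adjusted p 0.0519 to 0.481). Another of these settings flipped the signs of the 6 differences between same-numbered libraries. With so few pairs it could hardly pass whatever the data.

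The decoy to receptor ratio, Il1r2 over Il1r1, was -4.30 to -2.78 in sham, -3.43 to 0.76 in SAH 1d and -4.93 to -3.59 in SAH 7d. Every SAH 7d library lay below every SAH 1d library. In SAH 7d, Il1r2 was listed at 0 FPKM in 3 libraries and at 0.0857 FPKM or less in 5 of 6, under the 0.1 added, so that these ratios are set by the added value and by Il1r1 and their size is not a measure of the decoy transcript. The means were -4.27 ± 0.59 (SD, n = 6) in SAH 7d and -1.85 ± 1.71 in SAH 1d, a difference of -2.42 (exact permutation p = 0.00216, the smallest possible, adjusted p = 0.013), and -2.03 without the pair of high libraries (adjusted p = 0.0476). The difference lost its call with 1 added in place of 0.1, at -0.89 (adjusted p = 0.156). It also lost its call without SAH 7d-1, SAH 7d-2, SAH 7d-3, SAH 7d-4, SAH 7d-5 or SAH 7d-6, with adjusted p from 0.0606 to 0.0844. The difference stayed at -2.56 to -2.29 in these settings, and the remaining SAH 7d libraries still lay below every SAH 1d library. With 5 libraries against 6, some splits can exceed the observed difference even where groups do not overlap. The loss is therefore no measure of a weaker difference. Leaving out any 1 SAH 1d library did not lose the call. In SAH 1d, SAH 1d-3 was the only library in which the decoy transcript exceeded that of the receptor per length. The difference of SAH 1d from sham was 1.66 (exact permutation p = 0.0433, adjusted p = 0.0682), and without SAH 1d-4 it was 1.97 (adjusted p = 0.0303). Over 4 alternative settings this difference ran from 0.38 to 2.22 and never passed (exact tests, adjusted p 0.0519 to 0.519), though the sign flips among them could hardly pass. The comparison of SAH 7d with sham, at -0.77 (exact permutation, adjusted p = 0.0682), gives no measure of the decoy transcript, since the median Il1r2 FPKM of both groups was under the 0.1 added.

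**Figure D4:**
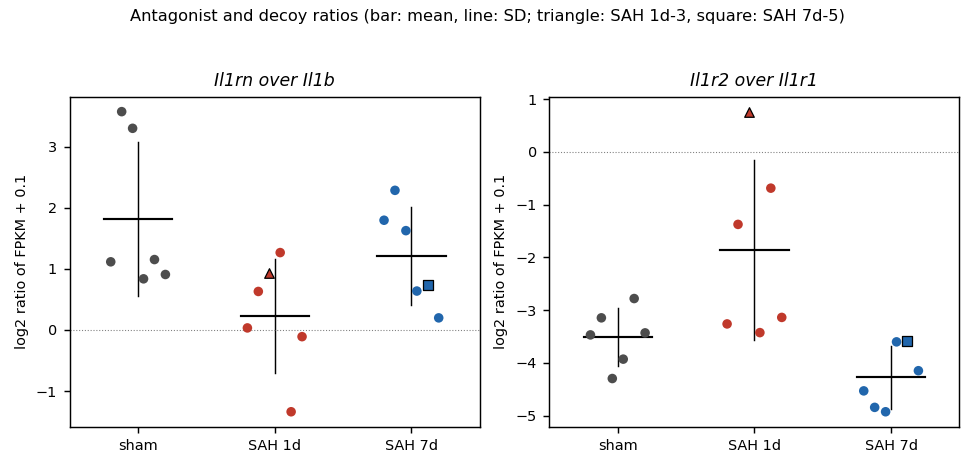
log2 ratio of FPKM + 0.1 for Il1rn over Il1b and for Il1r2 over Il1r1 in each library, with group mean (bar) and SD (line). All SAH 7d points lie below all SAH 1d points for Il1r2 over Il1r1, while the Il1rn over Il1b points of the groups overlap.

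Further genes of the pathway were taken from 4 lists with 73 genes, of which 61 were tested. At 1 day 39 of these rose and 1 fell against sham, while 14.9% of all tested genes rose and 25.4% changed in either direction. Among the other IL-1 family ligands and receptors, 4 of 7 tested genes rose. Il18rap, a chain of the IL-18 receptor, rose by 2.61 ± 0.44 on the log2 scale (SE, edgeR adjusted p = 0.00148), and Il18bp, which encodes the soluble IL-18 inhibitor, rose by 1.36 ± 0.25 (adjusted p = 0.00215). Il1rl2, the IL-36 receptor, rose by 1.85 ± 0.41 (adjusted p = 0.00697), and Sigirr, an inhibitory member of the receptor family, by 1.29 ± 0.29 (adjusted p = 0.00777). Without SAH 1d-3 these 4 rose by 2.12, 1.27, 1.34 and 0.96. In each of them the SAH 1d libraries lay wholly above the sham libraries, against 7.88% of all genes, and this was a ground for naming them. Il1rapl1, a synaptic receptor relative, fell by 0.56 ± 0.18 (adjusted p = 0.0351), a call that was lost without sham-2, sham-3, sham-4, sham-5, SAH 1d-2 or SAH 1d-6 (adjusted p 0.0503 to 0.0767). Il18r1, Il36a, Il36b, Il36g, Il36rn and Il1f10 did not pass the filter on low counts. Both the IL-18 transcript and its soluble inhibitor thus rose at 1 day.

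Of the inflammasome and pyroptosis genes, 9 of 16 tested rose and none fell. Casp4, the neighbour of Casp1 and a sensor caspase for lipopolysaccharide, rose by 1.68 ± 0.25 (SE, edgeR adjusted p = 0.000746). Gsdmd, whose cleaved product forms the pyroptotic pore, rose by 1.06 ± 0.18 (adjusted p = 0.00153). Pycard, the adaptor ASC, rose by 1.57 ± 0.35 (adjusted p = 0.00632). Mefv, Gbp2, Gbp5 and Nlrp1a rose by 2.57, 2.56, 1.98 and 1.17. For these 7 of the 16 genes the groups did not overlap, against 7.88% of all genes, and this was a ground for naming them. The 9 genes also rose without SAH 1d-3, Casp4 by 1.53, Gsdmd by 1.00, Pycard by 1.43, Mefv by 1.99, Gbp2 by 2.29, Gbp5 by 1.84 and Nlrp1a by 0.87. Nek7, which encodes an Nlrp3 partner, was at -0.01 ± 0.11 (adjusted p = 0.964), and P2rx7, the ATP-gated channel upstream of Nlrp3, at 0.21 ± 0.24 (adjusted p = 0.553). Nlrp1a and the Gbp genes belong to families of near copies, so their counts are uncertain where reads could be split.

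Of the IL-1 receptor signalling genes 10 of 20 rose, mostly by small steps. Myd88, the adaptor of the receptor, rose by 1.52 ± 0.24 (SE, edgeR adjusted p = 0.00116), and Nfkbia, the NF-kappa-B inhibitor that is itself induced by the factor, rose by 1.65 ± 0.33 (adjusted p = 0.00396). The others, among them Tab2 (0.42) and Nfkb1 (0.83), stayed under a log2 fold change of 1. Of the genes known to be induced by IL-1, 16 of 18 tested rose, all past a log2 fold change of 1. Lcn2 rose by 5.57 ± 0.42 (SE, edgeR adjusted p = 9.39e-06), Socs3 by 5.10 ± 0.70 (adjusted p = 0.000389), Ccl2 by 7.56 ± 1.04 (adjusted p = 0.000414) and Icam1 by 2.39 ± 0.38 (adjusted p = 0.00103). Without SAH 1d-3 these 4 were at 5.53, 4.12, 5.89 and 1.83. Il6 and Cxcl1 rose by 6.50 and 8.15, and without SAH 1d-3 by 3.24 and 5.74. Without SAH 1d-3 there were 13 risen genes in this list, and the calls of Nos2 (adjusted p = 0.0633), Mmp3 (0.0529) and Nfkbiz (0.0554) were lost. Vcam1 was at -0.13 ± 0.18 (adjusted p = 0.632). The median log2 fold change was 1.29, 1.11, 0.45 and 4.06 in the 4 lists in the order given, against 0.0086 over all tested genes, and 0.96, 0.86, 0.37 and 1.72 without SAH 1d-3. Many of these genes are also induced by other cytokines.

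At 7 days none of the 61 genes changed against SAH 1d or against sham by edgeR. Without SAH 7d-5 and SAH 1d-3, 22 of the 61 fell against SAH 1d and none rose, while 7.49% of all genes fell. These were 14 of the induced genes, 4 of the other ligands and receptors, 3 signalling genes and 1 inflammasome gene. With all libraries the SAH 7d values lay wholly below those of SAH 1d for Mmp9, Mmp3, Sele, Ptgs2 and Sigirr (2.11% of all genes), which are named after their values were seen. Their log2 fold changes were -2.42, -1.99, -4.45, -1.79 and -1.12, with edgeR adjusted p of 0.0578 to 0.0802, and -1.72, -1.37, -3.95, -1.13 and -0.83 without the pair of high libraries (adjusted p 0.000124 to 0.0233). Against sham, DESeq2 called 10 of the 61 at 7 days, 7 of them in the inflammasome and pyroptosis list, against 2.49% of all genes, and 8 without SAH 7d-5, against 2.94%. Only Nfkbia of the 61 was wholly above sham at 7 days, against 0.797% of all genes. It was at 29.4 ± 7.53 CPM (SD, n = 6) against 14.5 ± 3.28 (log2 fold change 1.02 ± 0.20, edgeR adjusted p = 0.214).

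**Figure D5:**
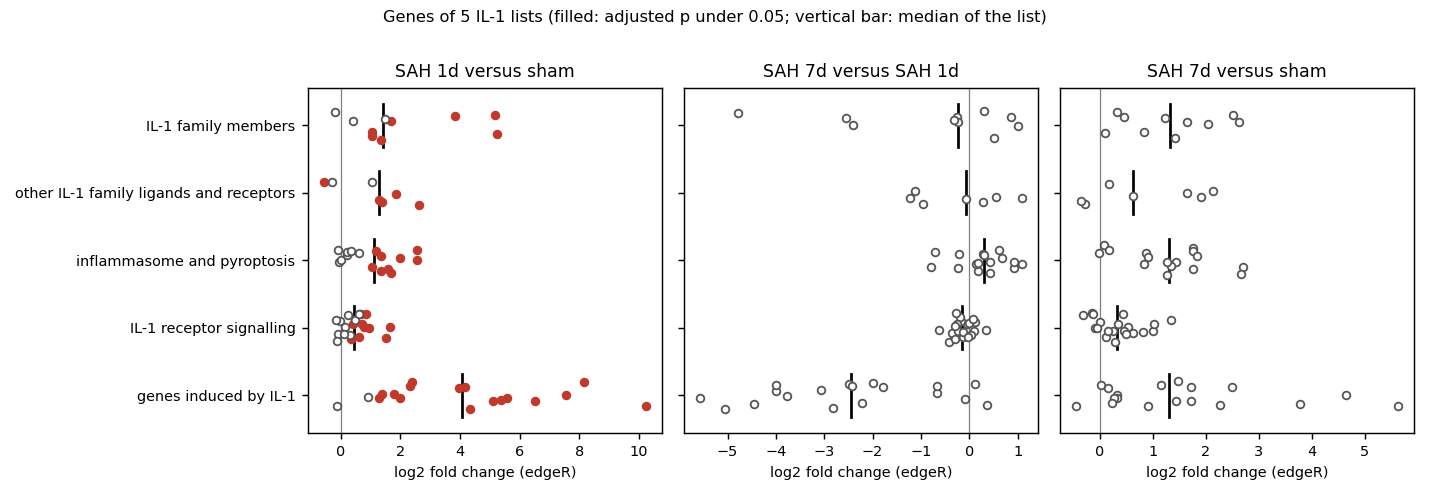
log2 fold change of every tested gene in the member list and the 4 further lists (points, spread vertically at random), filled where the edgeR adjusted p is under 0.05, with the list median as a bar. The filled points all lie in the comparison of SAH 1d with sham, where the genes known to be induced by IL-1 reach furthest, with a median of 4.06.

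The genes whose levels ran most like a member's were sought among all tested genes with a symbol, as Pearson r of log2 CPM over 18 libraries that share groups and both high libraries. For Casp1 they were Fcgr1a, an Fc receptor of monocytes and macrophages (r = 0.988), Arpc1b, an actin-nucleating subunit (0.982), and Mob1a (0.980), and the values were 0.971, 0.953 and 0.954 over the 16 libraries outside the pair. For Il1b they were Ddx18 (0.943), Col7a1 (0.943) and the adhesion molecule Icam1 (0.937), at 0.864, 0.891 and 0.887 over the 16. For Il1r1 they were Lox, the collagen cross-linking enzyme (0.949), Rassf8 (0.944) and Crabp2 (0.940), at 0.871, 0.852 and 0.854. For Il1rn they were Dnajb11 (0.943), Ugdh (0.923) and Tfpi2 (0.922), and these dropped to 0.504, 0.298 and 0.597 over the 16 libraries. For Il33 they were Ankrd55 (0.845), Mettl14 (0.838) and Sppl2a (0.783), at 0.871, 0.818 and 0.795. The likeness of Il1rn was thus carried by the pair of high libraries, and that of Casp1 was not.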

How the data were processed

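Total RNA of rat cortex, 1 library per rat, was sequenced by the authors and aligned to Rnor_6.0 according to the study's methods. The labels name fastp, HISAT2, DESeq2 1.16.1 and, against the rat gene identifiers, build mm9. The counting program is not given in the sources used here. Counts were deposited as whole numbers, not normalized, and the deposited FPKM values were scaled by the authors to transcript length and mapped reads. Totals were 27270026 to 38271014 counts per library, and errors are from the spread between rats. Of the 30735 genes, 8685 are loci outside the annotation. SAH titles hold other codes, so groups come from the descriptions, which equal the column names.

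Counts were tested with edgeR 4.0.16 in R 4.3.3 (filterByExpr on 18 libraries, TMM, quasi-likelihood F test, two-sided, 12 libraries per comparison, Benjamini-Hochberg over all tested genes). Ratios used exact permutation over 924 splits. Alternatives were DESeq2 1.42.0, DESeq2 size factors in edgeR, limma 3.58.1 on log2(FPKM + 1) and log2(FPKM + 0.1) at a mean FPKM of at least 0.5 or with no filter, all 18 libraries in 1 fit, the replicate number as a block, no filter on low counts, at least 10 counts in every library, each library left out, and SAH 7d-5 with SAH 1d-3 left out. That pair was picked out by its values in these data, and DESeq2 without it was chosen after seeing the data. Tables and figures used Python 3.11.15, numpy 2.4.6, pandas 2.3.3, scipy 1.17.1 and matplotlib 3.10.9. The tests were tested on simulated data.

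All members are named. From each further list, up to 4 genes with the smallest adjusted p under 0.05 per comparison and those past a log2 fold change of 1 whose groups did not overlap may be named. Other named list genes were chosen after their values were seen. Members and lists were chosen with earlier results of these data known. The 11 marker lists were neuron, astrocyte, oligodendrocyte, microglia, T cell, neutrophil, monocyte and macrophage, endothelial cell, red cell, meningeal fibroblast and choroid plexus. Promoter windows are RefSeq's, build GRCr8, matched by symbol.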

Additional observations from a re-analysis of the deposited data

Results flagged for a closer look

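Within a group of 6 libraries, the highest or lowest value was marked when its gap to the next one, relative to the whole range of the group, exceeded Dixon's 95% critical value. Of 30 groups tested, 18 were marked. Chance marks about 1 in 20 groups where values are normally distributed, which was not checked for CPM, and the members of a library are not independent. In SAH 1d-3 the CPM was far above the rest of its group for Il1a (5.19), Il1b (40.2), Il1rn (112), Il1r1 (30.4), Il1r2 (22.4), Il1rap (64.1), Il18 (15.2), Il33 (64.1), Casp1 (21.6) and Nlrp3 (8.97). In SAH 7d-5 it was far above the rest for Il1a (4.05), Il1b (6.34), Il1rn (15.5), Il1r1 (24.9), Il1r2 (0.755), Il18 (47.4), Casp1 (42.4) and Nlrp3 (32.8). No sham library was marked for any member.

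The log2 ratio of Il1r2 to Il1r1, with 0.1 added to both FPKM values, differed between SAH 7d and SAH 1d by -2.42 (exact permutation p = 0.00216, adjusted p = 0.013), with all SAH 7d libraries below all SAH 1d libraries. In SAH 7d, Il1r2 was under the 0.1 added in 5 of 6 libraries, so the size of the difference is set by the added value. The call was lost with 1 added (-0.89, adjusted p = 0.156) and on leaving out any 1 of the SAH 7d libraries (-2.56 to -2.29, adjusted p 0.0606 to 0.0844). It was kept on leaving out any 1 of the SAH 1d libraries. The ratio was marked because it compares the same balance at 2 time points with a test of the difference itself.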

How the results depend on the processing

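The members risen at 1 day were 7 by edgeR, 4 by DESeq2, 3 with all 18 libraries in 1 fit, 4 by limma on log2(FPKM + 1), 3 by limma with no filter, and 5 to 7 with each library left out. Of all genes, 16.6% rose by DESeq2, and 19.1% to 28.5% changed in either direction with each library left out. The shares of all genes under limma and with the replicate block are not given here, so those counts are not read as results about the members. The 3 of the fit of all 18 libraries were Il1b, Il1r2 and Il1rn (8.18% of all genes rose). Those of limma with no filter were Il18, Casp1 and Nlrp3, which were not called in the fit of all 18 libraries (edgeR adjusted p 0.054 to 0.146). Between 7 days and 1 day the count of 0 became 1 with all 18 libraries in 1 fit, 3 without SAH 7d-5 and SAH 1d-3 by edgeR and 3 by DESeq2, and 0 to 2 with each library left out. Of all genes, 5.49% changed by DESeq2 and 4.22% with all 18 libraries in 1 fit. Without the pair the shares were 13.6% by edgeR and 18.3% by DESeq2, and with each library left out 0.553% to 8.38%. Between 7 days and sham the count of 0 became 2 by DESeq2, with and without that pair, and stayed 0 with each library left out. For the 61 pathway genes the count at 1 day was 35 to 42 with each library left out. Between 7 days and 1 day it was 0 by edgeR, 7 by DESeq2, 7 with all 18 libraries in 1 fit, 2 by limma on log2(FPKM + 1), 5 on log2(FPKM + 0.1), 1 with no filter, 22 without the pair by edgeR and 23 by DESeq2, and 0 to 18 with each library left out. Between 7 days and sham it was 10 by DESeq2 and 8 without the pair, and 0 with each library left out. The cause was not tested. Signs turned for uncalled values. Casp1 between 7 days and 1 day, at 0.31, was -0.17 by limma on log2(FPKM + 1) with and without the filter, -0.25 on log2(FPKM + 0.1), and -0.29 by edgeR and -0.28 by DESeq2 without the pair. Il1r2 between 7 days and sham, at 0.45, was -0.022 by limma on log2(FPKM + 0.1) and -1.47 without the pair. With each library left out, the values between 7 days and 1 day ran from -0.67 to 0.68 for Casp1, -0.20 to 1.21 for Il18, -1.16 to 0.80 for Il1a, -0.63 to 0.21 for Il1r1 and -3.73 to 0.72 for Il1rn, and Il1r2 between 7 days and sham from -1.47 to 0.86. The ratio of Il1r2 to Il1r1 between 7 days and 1 day was -0.89 with a pseudocount of 1 and -2.74 to -1.90 with each library left out, between 1 day and sham 1.13 to 1.97, and between 7 days and sham -0.92 to -0.62. The ratio of Il1rn to Il1b was -1.79 to -1.23 between 1 day and sham, 0.66 to 1.18 between 7 days and 1 day, and -0.82 to -0.25 between 7 days and sham. The shared replicate numbers did not pair the rats, since deviations of same-numbered libraries correlated at -0.25 to 0.20. With the replicate block, 5 members rose at 1 day, with Il1b at 3.49 (adjusted p = 0.0512) and Il1rn at 1.47 (adjusted p = 0.183) below the threshold, 34 pathway genes changed, Casp1 between 7 days and 1 day was -0.21, and Il1r2 between 7 days and sham was -0.11. The ratio of Il1r2 to Il1r1 between 7 days and 1 day was then -2.42 (exact sign flips of 6 pairs, adjusted p = 0.0938). With so few pairs this test could hardly pass whatever the data, so nothing is concluded from its outcome. Il1b and Il1r2 are limited by depth in sham and at 7 days. Some sham libraries hold no counts for each gene, and at 7 days some hold none for Il1r2, while Il1b has at least 6 counts.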
